A study of Mus musculus with 80 samples.

Results

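The 10 immediate early genes Fos, Fosb, Junb, Egr1, Egr2, Egr3, Npas4, Nr4a1, Arc and Ier2 were taken by name, with earlier results of these data known. They were 10 of the 27179 rows of a count table of the mouse brain, and their levels were followed through 77 libraries. Levels are given as CPM, the reads of a gene scaled to a common library total. All 10 reached the minimum of 5 CPM in 8 or more libraries and were among the 13016 genes tested. The libraries came from the hypothalamus, amygdala, hippocampus, cortex and cerebellum of 16 C57BL/6 females (C57BL/6J in the methods). There were 8 virgin and 8 primiparous (1 litter) animals of matched age, the primiparous females having been paired with a male at 8 weeks and the unmated ones kept in groups. Per the labels, tissue was taken 3 weeks after weaning, and the methods of the study give a longer interval. All animals were killed on the same day, without anaesthesia, within a short window. Only primiparous females met males and pups, so housing, mating, pregnancy, lactation and the time after weaning cannot be told apart. The whole hypothalamus but the left side alone of the other regions was used, and the libraries of a region were pooled for sequencing. Differences between regions therefore cannot be told apart from those between pools, nor for the hypothalamus from the use of both sides. Each animal number gave up to 5 libraries, 1 per region. Of 80 libraries, 3 virgin ones that the authors removed (amygdala of animal 4487, cerebellum and hippocampus of animal 4490) were not analysed here.

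Immediate early genes are transcribed soon after a neuron is depolarized or a growth factor receptor is engaged, from factors already present in the cell, and their messages are short lived. Calcium entry and kinase cascades act on CREB, serum response factor with its ternary complex partners, and MEF2, which sit at their promoters and enhancers. In brain tissue the messages are used as a record of recent neuronal activity. Fos, Fosb and Junb encode subunits of the AP-1 transcription factor, Egr1, Egr2 and Egr3 are zinc finger transcription factors, Npas4 is a neuronal factor induced by calcium, and Nr4a1 is an orphan nuclear receptor. Arc is a synaptic protein involved in the endocytosis of glutamate receptors, and Ier2 is a nuclear protein.

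The total per library ran from 7959192 to 37871854 counted reads, with a median of 17623886. Of the genes fixed as region markers, 7 of 7 for the hypothalamus and 5 of 5 for the cerebellum were highest in their own region, as were 4 of 5 for the hippocampus and 4 of 5 for the cortex, but only 1 of 5 for the amygdala. The amygdala libraries are therefore named by their label. In bulk tissue, fewer cells with a message and less message per cell cannot be told apart.

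Promoter sequences from RefSeq (build GRCm38.p6) were used for 6 of the 10 members, Fos, Fosb, Junb, Egr2, Nr4a1 and Npas4, and those of Egr1, Egr3, Arc and Ier2 were not analysed here. Of these, 5 are shown over the 250 bases before the start, 5′ to 3′ on the strand of the gene as examples of the gene families (AP-1, EGR, NR4A and Npas4), and Fosb was left out for length alone. Capitals mark the letters searched for on both strands. These were the CArG box bound by serum response factor, TGACGTCA (the full cyclic AMP response element), TGACG (its core, and so part of it), GCGGGGGCG (an EGR site), TGAGTCA and its reverse complement TGACTCA (an AP-1 site), AAAGGTCA (an NR4A site) and TATAAA. The Fos window is chr12:85473640-85473889 (plus strand), that of Nr4a1 chr15:101266596-101266845 (plus), that of Junb chr8:84978749-84978998 (minus), that of Npas4 chr19:4989972-4990221 (minus) and that of 1 of the 5 listed starts of Egr2 chr10:67537619-67537868 (plus).
Fos: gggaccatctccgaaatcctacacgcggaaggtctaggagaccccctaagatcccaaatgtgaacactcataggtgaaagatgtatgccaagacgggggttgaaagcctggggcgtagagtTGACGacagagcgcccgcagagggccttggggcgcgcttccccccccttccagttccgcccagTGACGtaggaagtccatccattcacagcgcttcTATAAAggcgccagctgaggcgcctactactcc
Nr4a1: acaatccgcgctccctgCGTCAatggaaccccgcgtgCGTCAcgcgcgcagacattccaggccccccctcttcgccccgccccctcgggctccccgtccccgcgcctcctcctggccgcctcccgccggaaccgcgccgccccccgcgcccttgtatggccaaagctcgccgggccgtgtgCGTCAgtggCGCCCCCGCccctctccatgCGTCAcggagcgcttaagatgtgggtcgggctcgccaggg
Junb: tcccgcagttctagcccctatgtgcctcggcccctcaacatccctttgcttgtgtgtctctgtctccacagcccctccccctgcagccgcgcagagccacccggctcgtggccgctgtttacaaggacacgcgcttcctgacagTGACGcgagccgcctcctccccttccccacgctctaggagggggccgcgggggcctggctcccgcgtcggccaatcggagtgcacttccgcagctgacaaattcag
Npas4: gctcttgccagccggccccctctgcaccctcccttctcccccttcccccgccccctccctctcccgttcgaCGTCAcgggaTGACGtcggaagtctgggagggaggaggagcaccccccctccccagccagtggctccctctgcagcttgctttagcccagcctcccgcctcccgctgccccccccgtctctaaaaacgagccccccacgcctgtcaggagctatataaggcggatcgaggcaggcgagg
Egr2: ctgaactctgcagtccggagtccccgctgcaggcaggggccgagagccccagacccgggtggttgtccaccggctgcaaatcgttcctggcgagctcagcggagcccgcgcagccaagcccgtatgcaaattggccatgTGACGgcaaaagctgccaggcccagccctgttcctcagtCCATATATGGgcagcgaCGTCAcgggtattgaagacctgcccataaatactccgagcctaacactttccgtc
The letters TGACG were found in 6 of 6 members with a listed promoter, counting Egr2 by any of its starts, and in 17.8% of the 32851 promoters in the table over the same length. The CArG box was found in 1 of 6, Egr2, again by any of its starts, and in 1.47% of all promoters, each of which is a single start. GCGGGGGCG was found in 2 of 6, Fosb and Nr4a1 (2.57% of all), and TATAAA in 1 of 6, Fos (12.4% of all). TGACGTCA (1.55% of all), TGAGTCA (4.46%) and AAAGGTCA (1.34%) were in no window of the 6 members. For these, and for the CArG box, GCGGGGGCG and TATAAA in the members without them, absence says only that the letters are not in these 250 bases.

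How the levels of the members differed between regions was described first. The cortex had the highest mean level of 9 of the 10 members, and Ier2 was highest in the cerebellum. Compared per length of exon (RPKM, the CPM divided by the exon length in kilobases), Arc was the most abundant member in the cortex at 89.8 ± 27.4 (SD, n = 16), followed by Egr1 at 59.4 ± 11.1, Nr4a1 at 28.7 ± 5.77 and Junb at 25.2 ± 5.17. Fos stood at 12.4 ± 3.14 RPKM and Egr2 was lowest at 1.76 ± 0.617. In the cerebellum (n = 15) the order was different, with Ier2 at 12.2 ± 2.48 RPKM, Arc at 8.89 ± 1.27 and Fos at 8.36 ± 4.10, while Egr3 stood at 0.0516 ± 0.0696 and Egr2 at 0.0263 ± 0.0301.

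**Figure D1:**
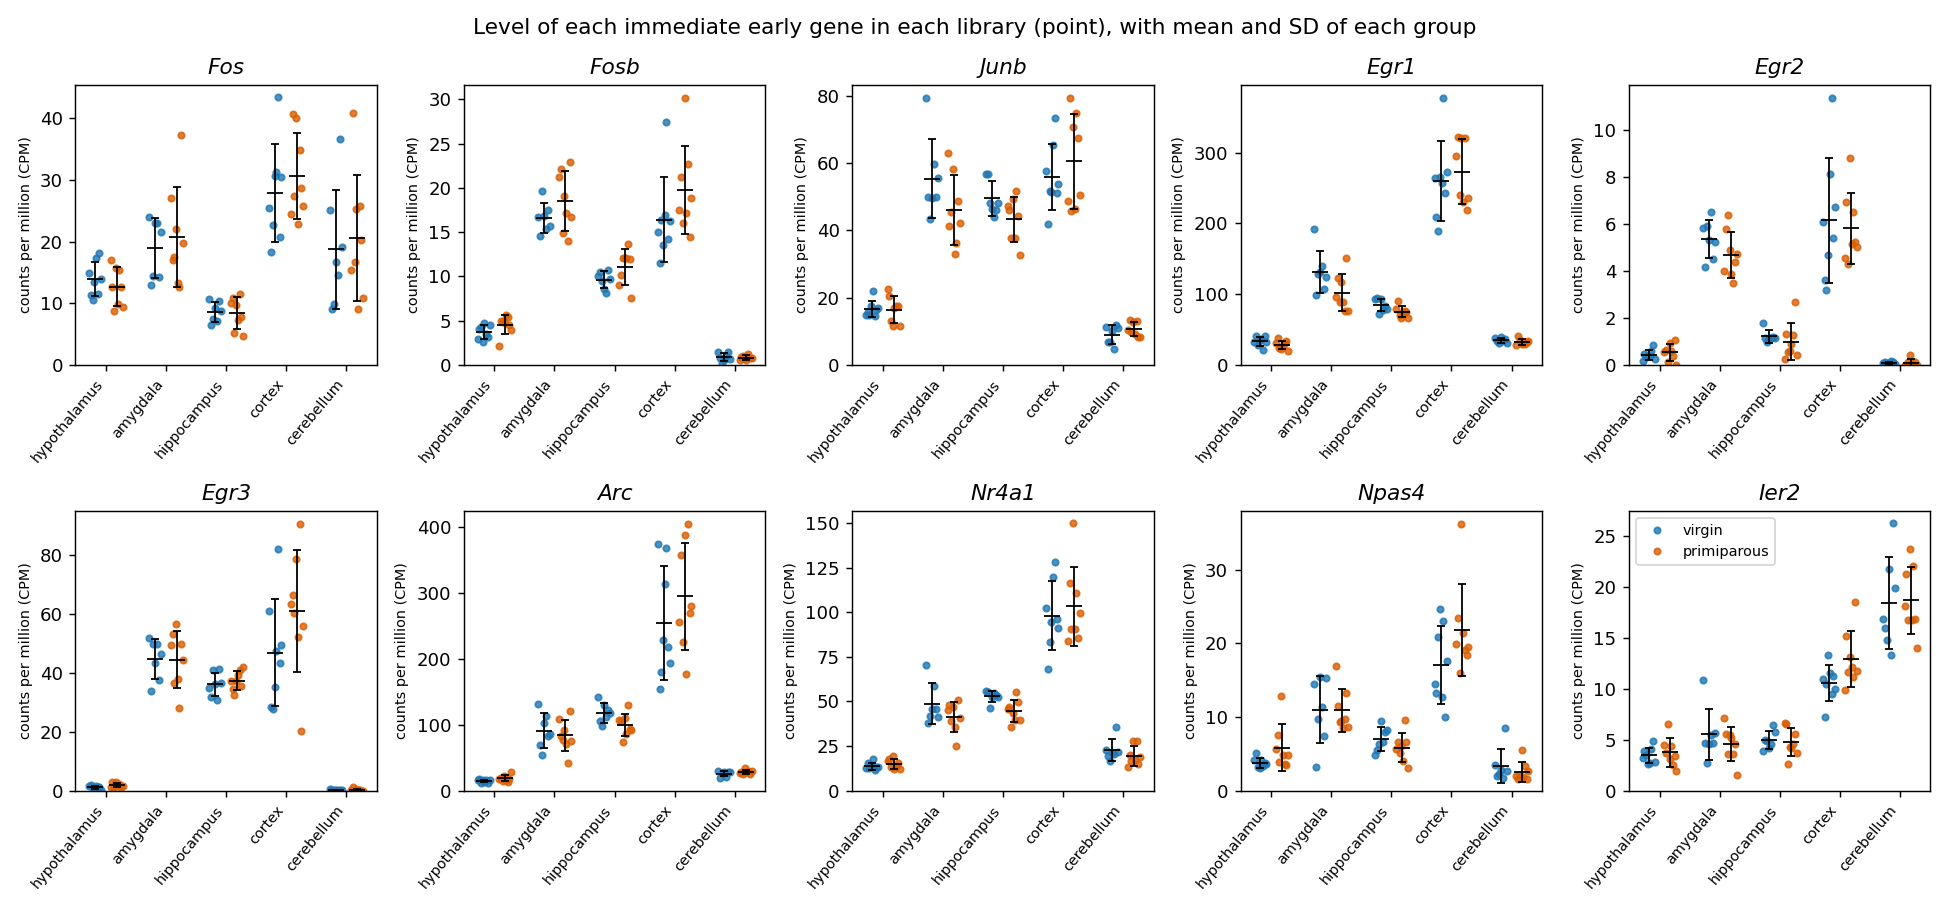
Level of each of the 10 members in CPM (vertical axis, linear from 0) in each library (point) of each region (horizontal axis), virgin in blue and primiparous in orange, with the group mean (short line) and SD (bar). The cortex is highest for every member except Ier2, which reached a mean of 18.6 CPM in the cerebellum, and virgin and primiparous points overlap in every panel and region.

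Among the AP-1 subunits, Fos had a different order from Fosb and Junb. Fos ranged from 18.2 to 43.5 CPM in the cortex (median 28.0, n = 16), from 12.6 to 37.2 in the amygdala (median 19.7, n = 15) and from 9.02 to 40.8 in the cerebellum (median 16.7, n = 15). It ranged from 8.75 to 18.1 CPM in the hypothalamus (median 13.0, n = 16) and from 4.63 to 11.4 in the hippocampus (median 8.67, n = 15). Every cortical library was above every hippocampal library, with a log2 difference of 1.76 ± 0.17 (SE; edgeR quasi-likelihood test, Benjamini-Hochberg adjusted p = 1.1e-14). Amygdala and cerebellum, neighbours in this order, did not differ beyond their spread (log2 difference 0.15 ± 0.17, adjusted p = 0.417). Fosb fell from a mean of 18.1 CPM in the cortex and 17.6 in the amygdala, which did not differ (0.02 ± 0.11, adjusted p = 0.907), to 0.848 in the cerebellum. Between cortex and cerebellum the Fosb difference was 4.54 ± 0.14 on the log2 scale (adjusted p = 3.1e-44). Junb lay at 58.1 ± 11.9 CPM in the cortex, 50.3 ± 11.7 in the amygdala and 46.1 ± 6.63 in the hippocampus, and neither neighbouring difference passed the test (adjusted p = 0.106 and 0.317). It was lowest in the cerebellum at 9.83 ± 2.53 CPM. The smaller Junb difference between cortex and hippocampus (0.30 ± 0.10, adjusted p = 0.00606) no longer passed when the trend with gene length and GC content was removed.

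Egr2 and Egr3 had the steepest gradients of the members. Egr1 ranged from 190 to 378 CPM in the cortex (median 261), from 76.0 to 192 in the amygdala (median 117) and from 65.7 to 94.3 in the hippocampus (median 77.4). The cerebellum (33.4 ± 4.07) and the hypothalamus (30.7 ± 6.82) did not differ for Egr1 (0.14 ± 0.10 on the log2 scale, adjusted p = 0.173), except that the length and GC correction brought this difference past the threshold. Egr2 was at 3.20 to 11.4 CPM in the cortex (median 5.32) and 3.47 to 6.52 in the amygdala (median 4.89), which did not differ (adjusted p = 0.284). In the hippocampus Egr2 stood at 1.09 ± 0.592 CPM, and in the hypothalamus it reached at most 1.04. Egr3 was at 53.9 ± 20.2 CPM in the cortex, 44.6 ± 8.16 in the amygdala and 36.8 ± 3.57 in the hippocampus, and neighbouring regions in this order did not differ (adjusted p = 0.132 and 0.0955). It dropped to 1.52 ± 0.715 in the hypothalamus and 0.228 ± 0.307 in the cerebellum. The cortical level of Egr3 was 236-fold that of the cerebellum (log2 difference 7.88 ± 0.25, adjusted p = 1.1e-41). Such low levels rest on few reads, from 0 to 36 reads of Egr3 and from 0 to 10 of Egr2 in the cerebellar libraries, and intervals from reads cover counting error only.

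Arc ranged from 154 to 405 CPM in the cortex (median 263), from 74.0 to 142 in the hippocampus (median 106) and from 42.3 to 131 in the amygdala (median 83.3). All 4 neighbouring pairs of regions in its order of level differed, the closest pair being hippocampus and amygdala (0.32 ± 0.12, adjusted p = 0.0193). The hypothalamus, at 16.6 ± 3.92 CPM, was the lowest, at a log2 difference of 4.16 ± 0.13 from the cortex (adjusted p = 1.3e-40). Nr4a1 was at 101 ± 20.3 CPM in the cortex, 48.5 ± 6.50 in the hippocampus and 44.9 ± 10.3 in the amygdala. The last 2 did not differ (0.12 ± 0.10, adjusted p = 0.304), except under the length and GC correction. Npas4 had a step at each neighbouring pair, from 19.4 ± 6.10 CPM in the cortex to 10.9 ± 3.63 in the amygdala, 6.37 ± 1.85 in the hippocampus, 4.81 ± 2.44 in the hypothalamus and 2.92 ± 1.86 in the cerebellum, with adjusted p from 7.6e-05 to 0.00476.

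Ier2 was the 1 member with its highest level in the cerebellum. It ranged from 13.3 to 26.2 CPM in the cerebellum (median 16.8, n = 15), from 7.23 to 18.5 in the cortex (median 11.4, n = 16) and from 1.94 to 6.52 in the hypothalamus (median 3.41). Cerebellum exceeded cortex by 0.56 ± 0.13 on the log2 scale (adjusted p = 6.9e-05), in 14 of the 15 animals with both. Amygdala and hippocampus did not differ (0.03 ± 0.14, adjusted p = 0.858).

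Most genes differed between regions, so the counts of members have to be read against that background. Cortex exceeded cerebellum for 9 members and was below it for 1, against 39.7% of all tested genes higher in the cortex and 40.2% higher in the cerebellum. Cortex exceeded hypothalamus for 10 of 10 members (39.0% of all genes) and hippocampus for 10 of 10 (34.3%), and no member was lower there (38.7% and 32.7%). It exceeded amygdala for 6 of 10 (30.8%) and was below it for 0 (31.7%). Hypothalamus was below amygdala for 10 of 10 (34.3%, with 36.7% of all genes in the other direction), below hippocampus for 9 (36.1%) and above it for 1, Fos (36.9%). Between hypothalamus and cerebellum the members divided into 5 higher in the hypothalamus (40.0%) and 4 higher in the cerebellum (41.1%). Amygdala exceeded hippocampus for 5 members (30.0%) and was below it for 1, Arc (28.7%). Amygdala exceeded cerebellum for 8 (38.8%) and was below it for 1, Ier2 (41.4%). Hippocampus exceeded cerebellum for 8 (38.5%) and was below it for 2, Fos and Ier2 (40.2%). The median difference of the members between cortex and cerebellum was 2.96 on the log2 scale, and that of all genes was -0.01. With the animal as a block, the counts of members in each pair were the same.

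The second comparison asked whether the members still differed between primiparous and virgin females after weaning. None of the 10 members passed the adjusted threshold in any of the 5 regions, and their virgin and primiparous libraries overlapped throughout. In the hypothalamus, where 22.6% of all tested genes were called (10.8% higher and 11.8% lower in primiparous females), 0 of 10 members were called by edgeR, and 3 of 10 had an unadjusted p under 0.05, against 37.1% of all genes. In the amygdala, hippocampus, cortex and cerebellum the genes called were 0%, 0%, 0% and 0.707% of all. There, 1, 3, 1 and 0 members had an unadjusted p under 0.05 (11.9%, 7.38%, 9.80% and 19.5% of all genes). Another tool, DESeq2, called 1 member in the hypothalamus, Npas4, and limma-voom 0.

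**Figure D2:**
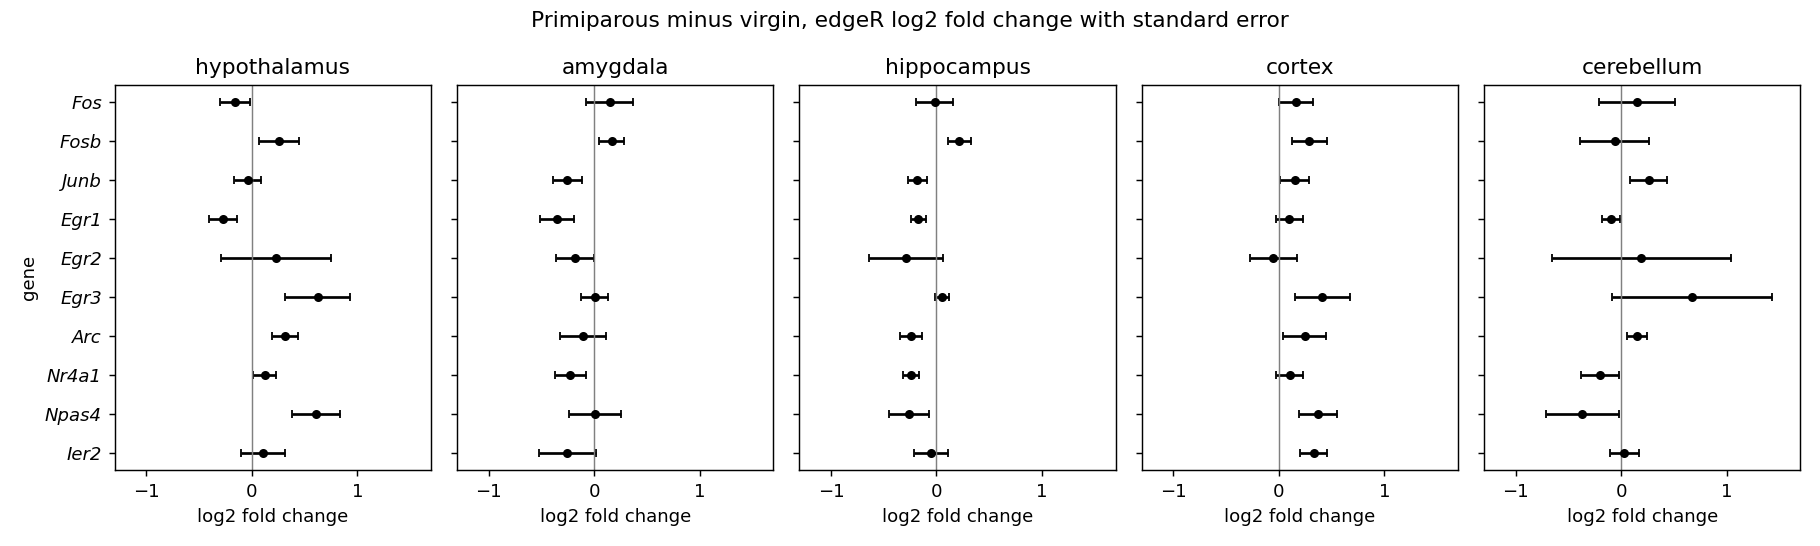
Log2 fold change of each member (vertical axis) between primiparous and virgin females (horizontal axis, above 0 for higher in primiparous) with its standard error, by region. The estimates lie on either side of 0 and run from -0.37 for Npas4 to 0.67 for Egr3 in the cerebellum (-0.55 without primiparous animal 414), and none passed the adjusted threshold.

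Npas4 in the hypothalamus came nearest to the threshold. Virgin libraries ranged from 3.03 to 5.05 CPM (median 3.63, n = 8) and primiparous ones from 3.52 to 12.9 (median 4.83, n = 8). Npas4 is the member whose induction is restricted to neurons, and its groups overlapped at the low end, with 1 primiparous library, that of animal 418, above all others. The log2 fold change was 0.61 ± 0.23 (adjusted p = 0.0538, edgeR), with 6 of 8 primiparous libraries above the virgin mean. Without animal 418 it was 0.34 (adjusted p = 0.138). It passed the threshold with DESeq2 (adjusted p = 0.0371), with library sizes alone as scaling (0.0473), and without primiparous animal 415 (0.0378), 425 (0.0391), 427 (0.0359) or 4493 (0.0459) or virgin animal 409 (0.0328). With the animal number series as a covariate it was 0.40 (adjusted p = 0.514), the numbers having 3 digits in 9 animals and 4 digits in 7. All primiparous animals but 4493 had 3 digits, and all virgin animals but 405 and 409 had 4. Number series and state therefore nearly coincide in every parity comparison. With the length and GC correction the log2 fold change of Npas4 was 0.51 (adjusted p = 0.240).

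Arc in the hypothalamus ranged from 11.8 to 17.1 CPM in virgin (median 15.5) and from 13.2 to 27.5 in primiparous females (median 17.8), a log2 fold change of 0.31 ± 0.12 (adjusted p = 0.0693). Leaving out primiparous animal 415 (adjusted p = 0.0425), 425 (0.0349) or virgin animal 409 (0.0463) brought it past the threshold, and the length and GC correction gave 0.16 (adjusted p = 0.582). Egr1 leaned the other way in the hypothalamus, at 33.3 ± 6.70 CPM in virgin and 28.1 ± 6.26 in primiparous females (-0.27 ± 0.13, adjusted p = 0.133). Without virgin animal 4489 its value was -0.35 (adjusted p = 0.0397). Fos was at 13.9 ± 2.78 CPM in virgin and 12.7 ± 3.16 in primiparous females (-0.16 ± 0.14, adjusted p = 0.448). Egr3 was at 1.16 ± 0.492 CPM in virgin and 1.89 ± 0.738 in primiparous females, and was not called by edgeR. These Egr3 levels rest on 3 to 42 and 17 to 44 reads.

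In the hippocampus the smallest p of a member belonged to Nr4a1. Virgin libraries held 46.6 to 55.7 CPM (median 53.5, n = 7) and primiparous ones 35.9 to 55.3 (median 44.7, n = 8). The log2 fold change was -0.24 ± 0.07, with 7 of 8 primiparous libraries below the virgin mean, and the adjusted p was 0.564. Arc (-0.24 ± 0.11, adjusted p = 0.661) and Egr1 (-0.17 ± 0.07, adjusted p = 0.638) had similar values. The summed level of 5 cerebellar markers ran from 7.97 to 15.3 CPM in virgin and from 8.25 to 460 in primiparous hippocampus, with 5 of 5 at an unadjusted p under 0.05 and 0 called by edgeR. The highest of these sums was that of primiparous animal 413, beside 21.4 CPM in the next library. Without that library the log2 fold change was -0.25 for Nr4a1 (adjusted p = 0.332), -0.25 for Arc (0.504) and -0.18 for Egr1 (0.445). In the fit with all hippocampal libraries, 2 of 3 tested blood and 3 of 5 astrocyte markers had an unadjusted p under 0.05. The median log2 differences of these lists were 0.64 and 0.02, and 0 genes were called. The part of these markers in the hippocampal values was not tested. In the amygdala Egr1 was at 132 ± 30.0 CPM in virgin and 102 ± 26.0 in primiparous females (-0.35 ± 0.16, adjusted p = 0.412). There the sum of 7 striatal markers ran from 322 to 576 CPM in virgin and from 257 to 455 in primiparous females (median log2 difference -0.34, 2 of 7 with an unadjusted p under 0.05, 0 called by edgeR), and that of blood markers from 15.2 to 58.6 and from 23.5 to 72.3 (median 0.73, 2 of 3 tested, 0 called by edgeR). Their part in the Egr1 value was not tested. In the cortex Ier2 was at 10.5 ± 1.76 and 12.9 ± 2.73 CPM (0.33 ± 0.13, adjusted p = 0.479).

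An interaction term asked, for each of the 10 pairs of regions, if the parity difference was unequal between them. Arc passed in the hypothalamus against the hippocampus (0.55 ± 0.17 on the log2 scale, adjusted p = 0.0270, and 0.50 with adjusted p = 0.0348 with the animal as a block). It was the 1 member called there, against 17.2% of all genes, and without the hippocampal library of animal 413 the value was 0.56 (adjusted p = 0.0262). The call was lost without the expression filter (0.54, adjusted p = 0.0564) and under the length and GC correction (0.37, adjusted p = 0.358). Npas4 in the same pair had 0.86 ± 0.31 (adjusted p = 0.0510, and 0.0905 with the animal as a block) and Nr4a1 0.36 ± 0.13 (0.0574). Under the length and GC correction Npas4 had 0.74 (adjusted p = 0.258) and Nr4a1 0.19 (0.527). For all 3 the estimate was positive, with a higher mean in primiparous hypothalamus and a lower mean in primiparous hippocampus. No member was called in the other 9 pairs, in which 18.2%, 0%, 15.5%, 0%, 1.11%, 0.415%, 0%, 0.169% and 0.00768% of all genes were called.

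Other activity genes were counted in the hypothalamus and cerebellum from wider lists. Of 39 tested genes of a list of 44 further primary response genes, 3 were higher and 1 lower in primiparous hypothalamus, shares no larger than those of all tested genes (10.8% higher and 11.8% lower). Jun, an AP-1 partner of Fos, rose from 56.9 ± 4.83 to 67.4 ± 8.75 CPM (0.22 ± 0.07, adjusted p = 0.0308), with 8 of 8 primiparous libraries above the virgin mean, and Jund (0.20 ± 0.07) and Ier5 (0.29 ± 0.10) rose with 7 of 8. Tiparp, an ADP-ribosyltransferase, fell by 0.36 on the log2 scale. In the cerebellum 2 of 39 rose, against 0.599% of all genes, the transcription factor Cebpb (0.77 ± 0.16, adjusted p = 0.0283) and Ier5 (0.34 ± 0.08, adjusted p = 0.0442), each with 8 of 8 primiparous libraries above the virgin mean. Beside these cerebellar values, the summed level of 5 microglial markers ran from 76.8 to 91.3 CPM in virgin and from 89.7 to 112 in primiparous cerebellum (1 of 5 called higher), and that of 5 oligodendrocyte markers from 4035 to 5470 and from 4963 to 6977 (1 of 5 called higher). Blood markers summed to 41.6 to 61.3 and 45.6 to 151 CPM (0 of 3 tested called, 3 with an unadjusted p under 0.05), and 1 of 5 astrocyte markers was called higher. Unadjusted p was under 0.05 for 3 of 5 microglial, 4 of 5 oligodendrocyte and 2 of 5 astrocyte markers. Of the 5 cerebellar markers 4 had an unadjusted p under 0.05 and 0 were called, with a median log2 difference of -0.08. In the hypothalamus blood markers summed to 25.2 to 53.5 CPM in virgin and 32.0 to 103 in primiparous females (2 of 3 tested called higher), and cerebellar markers to 17.6 to 28.4 and 16.6 to 30.5 CPM (1 of 5 called higher, 3 with an unadjusted p under 0.05). There, 1 endothelial, 1 choroid plexus and 1 hippocampal marker were called higher and 1 oligodendrocyte, 1 astrocyte and 1 hypothalamic marker lower. The part of these markers in the list results was not tested. The median difference over the list was 0.03 in hypothalamus and 0.04 in cerebellum, beside 0.01 for all genes in both. None of the 39 was called in the amygdala, hippocampus or cortex.

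Of 13 late response genes, 2 rose and 2 fell in the hypothalamus, namely Sst, the neuropeptide somatostatin (0.44 ± 0.08), Nptx2, a synaptic pentraxin (0.23 ± 0.08), Rasgrp1, a Ras activator (-0.27 ± 0.09), and Scg2, a secretogranin (-0.13 ± 0.05). Of 21 genes upstream of the members, 5 fell in the hypothalamus and 0 rose, where 10.8% of all genes were higher and 11.8% lower. Among them were Camk4, a calcium-dependent kinase (65.8 ± 5.87 to 52.9 ± 5.31 CPM, -0.33 ± 0.07, adjusted p = 0.00277), Rps6ka3, a ribosomal S6 kinase (-0.45 ± 0.14), Elk4, a serum response factor partner (-0.33 ± 0.10), and Mef2a (-0.28 ± 0.08). Median differences of these lists were -0.04 and 0.00 on the log2 scale, beside 0.01 for all genes. In the other 4 regions none of these 2 lists had a gene called.

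The third question was whether an animal that was high for a member in 1 region was high in another. Levels as log2(CPM + 4) were centred on the mean of their state and region, and Pearson r was taken over the animals with both regions (n = 14 to 16), with p by permuting animals within states. Of the 100 relations of 10 members in 10 pairs of regions, 80 had r above 0, and 19 had r above 0 with an unadjusted permutation p under 0.05. Over the same pairs that share was 3.62% of all relations of tested genes. With r below 0, 0 of the 100 had a p under 0.05, against 2.10% of all relations, and 1 had without the 2 animals farthest from the median (Npas4 in hypothalamus and hippocampus, r = -0.612, permutation p = 0.0390). After adjustment over all genes of a pair, 0 relations passed, the smallest adjusted permutation p being 0.163. The smallest p that the permutations can give is 1e-05, which for a lone gene corresponds to an adjusted p of 0.13.

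**Figure D3:**
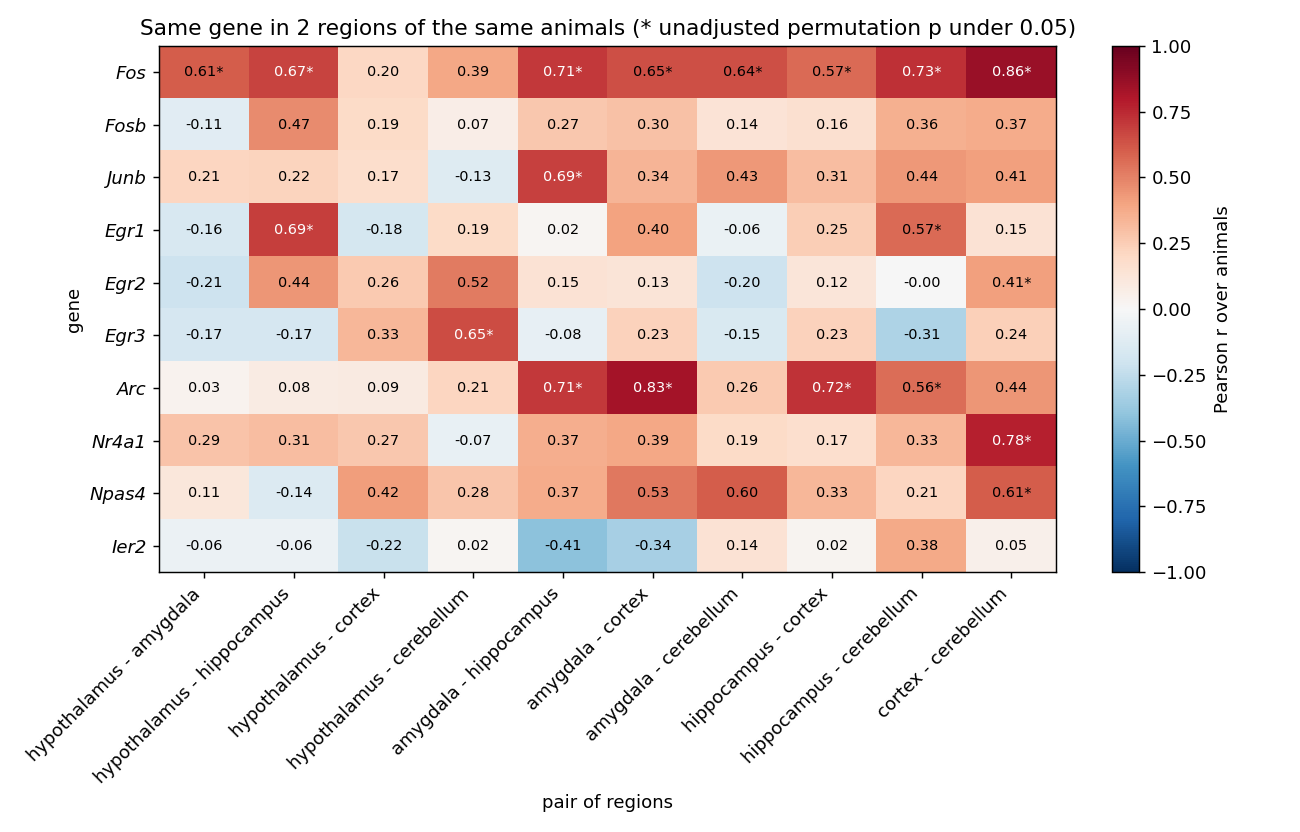
Pearson r over animals (colour and number, scale from -1 to 1) of each member (rows) between 2 regions of the same animals (columns), with a star where the unadjusted permutation p was under 0.05. The Fos row is above 0 in all 10 columns and reaches 0.86 for cortex with cerebellum, and the Ier2 row has no star.

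Fos was the member most alike between regions, with r above 0 in 10 of 10 pairs, a median r of 0.645, and an unadjusted p under 0.05 in 8. Among all tested genes its r stood above the 95th percentile in those 8 pairs. The cortex and cerebellum gave the highest value, r = 0.861 (permutation p = 0.00013) and Spearman rho = 0.832 (permutation p = 0.00049), with r = 0.795 without the 2 animals farthest from the median. In these regions the virgin animals 409 and 4486 were at 18.2 and 22.7 CPM in the cortex and 9.08 and 9.85 in the cerebellum. Virgin animal 4489 was at 43.5 and 36.7 CPM, and the others at 25.5 and 25.1 (405), 30.6 and 16.7 (4487), 31.3 and 14.5 (4488), and 30.5 and 19.1 (4491). Of these 7, animals 409 and 4486 were the lowest and 4489 the highest in both regions, while 4487, 4488 and 4491 were above 405 in the cortex and below it in the cerebellum. Among primiparous females, animals 421 and 4493 had the lowest cerebellar levels, at 9.02 and 10.8 CPM, with 22.9 and 25.7 in the cortex.

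Primiparous animal 414 was at 40.6 CPM of Fos in the cortex and 40.8 in the cerebellum, animal 418 at 40.1 and 25.2, and animal 425 at 34.8 and 25.8. Animals 413, 415 and 427 were at 24.4, 27.4 and 28.6 CPM in the cortex and 15.4, 16.7 and 20.2 in the cerebellum. The relation was present in virgin (r = 0.819, n = 7) and primiparous animals (r = 0.915, n = 8), for which no p is given, and in animals with 3-digit (r = 0.923) and 4-digit numbers (r = 0.961). The splits by state and by number hold nearly the same animals, so they are not separate checks. For Fos, 3 of 16 animals were above and 5 of 16 below their group mean in every region that was measured.

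**Figure D4:**
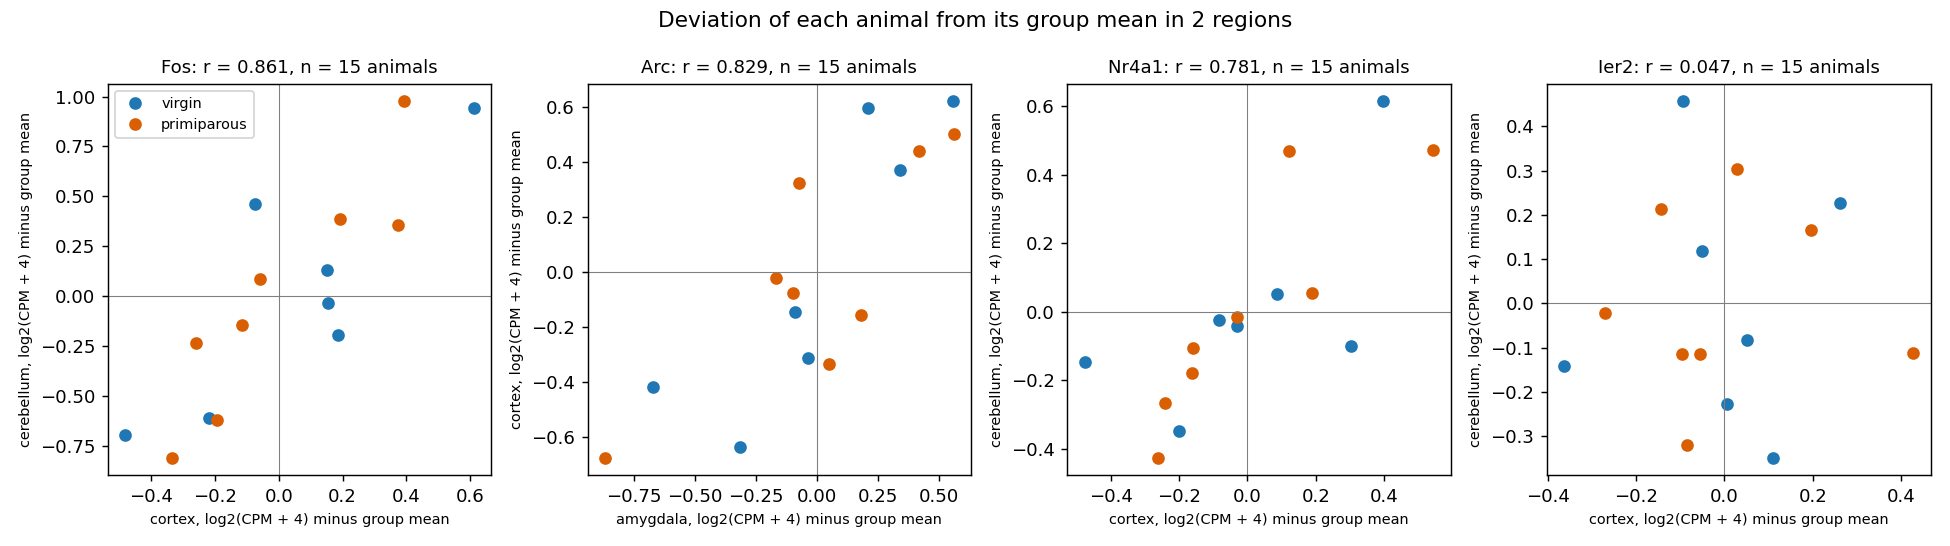
Deviation of each animal (point, virgin in blue and primiparous in orange) from its group mean, in log2(CPM + 4), in 1 region (horizontal axis) and another (vertical axis) for 4 members. Points rise together for Fos (r = 0.861) and Nr4a1 (r = 0.781) in cortex and cerebellum and for Arc (r = 0.829) in amygdala and cortex, and not for Ier2 (r = 0.047).

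The other pairs of regions gave Fos r = 0.734 between hippocampus and cerebellum (permutation p = 0.00272, rho = 0.754 with permutation p = 0.00304) and 0.707 between amygdala and hippocampus (permutation p = 0.0102, rho = 0.666 with permutation p = 0.0167). Amygdala with cortex gave 0.646 (permutation p = 0.00883, rho = 0.739 with permutation p = 0.00313). Amygdala with cerebellum gave 0.644 (permutation p = 0.0163, rho = 0.692 with permutation p = 0.0100), and 0.618 (permutation p = 0.0502) without the 2 farthest animals. Hippocampus with cortex gave 0.567 (permutation p = 0.0260, rho = 0.529 with permutation p = 0.0506). With the hypothalamus, Fos had r = 0.672 for the hippocampus (permutation p = 0.0150, rho = 0.621 with permutation p = 0.0266) and 0.606 for the amygdala (permutation p = 0.0245, rho = 0.568 with permutation p = 0.0401). Without the 2 farthest animals they were 0.573 (permutation p = 0.0620) and 0.628 (permutation p = 0.0286). Both values were uneven within groups. For the hippocampus r was 0.134 in virgin and 0.864 in primiparous animals, and 0.851 in animals with 3-digit and -0.359 in those with 4-digit numbers. For the amygdala it was 0.272 and 0.790 by state, and 0.769 and 0.0230 by number. The difference between groups was not tested, and the splits by state and by number hold nearly the same animals. The lowest values of Fos were for the hypothalamus with the cortex (r = 0.204, permutation p = 0.453) and with the cerebellum (r = 0.385, permutation p = 0.173).

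Arc had such relations among amygdala, hippocampus and cortex and none with the hypothalamus. Amygdala with cortex gave r = 0.829 (permutation p = 0.00022), rho = 0.814 (permutation p = 0.00078) and r = 0.789 without the 2 farthest animals. Amygdala with hippocampus gave 0.711 (permutation p = 0.00744, rho = 0.793 with permutation p = 0.00149) and hippocampus with cortex 0.719 (permutation p = 0.00289, rho = 0.707 with permutation p = 0.00443). Hippocampus with cerebellum gave 0.557 (permutation p = 0.0274, rho = 0.629 with permutation p = 0.0135), and 0.560 (permutation p = 0.0750) without the 2 farthest animals. With the hypothalamus the 4 values of Arc ran from 0.0328 to 0.212, and without the 2 farthest animals the value for the hippocampus was 0.720 (permutation p = 0.00988). Virgin animal 405 held 131 CPM of Arc in the amygdala and 374 in the cortex, and primiparous animal 421 held 42.3 and 177, the lowest of the 15 amygdala values.

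Of the other members, 5 had an unadjusted p under 0.05 with r above 0 in 1 pair each, Egr1 in 2, and Fosb and Ier2 in none. Nr4a1 gave r = 0.781 between cortex and cerebellum (permutation p = 0.00082, rho = 0.868 with permutation p = 0.00012), and Npas4 0.606 in the same pair (permutation p = 0.0202, rho = 0.454 with permutation p = 0.117, and r = 0.525 with permutation p = 0.149 without the 2 farthest animals). Egr1 gave 0.689 between hypothalamus and hippocampus (permutation p = 0.00562, rho = 0.671 with permutation p = 0.00930), with 0.406 in virgin and 0.933 in primiparous animals. Egr3, a relative of Egr1, gave 0.650 between hypothalamus and cerebellum (permutation p = 0.00234, rho = 0.694 with permutation p = 0.00188), where its levels rest on few reads, and r was 0.536 (permutation p = 0.0926) without the 2 farthest animals. Junb gave 0.687 between amygdala and hippocampus (permutation p = 0.0106, rho = 0.644 with permutation p = 0.0180), and 0.600 (permutation p = 0.0694) without the 2 farthest animals. Egr1 in hippocampus and cerebellum (r = 0.567, permutation p = 0.0361, rho = 0.382 with permutation p = 0.179) and Egr2 in cortex and cerebellum (r = 0.410, permutation p = 0.0494, rho = 0.267 with permutation p = 0.297) had r = 0.130 and 0.115 without the 2 farthest animals (permutation p = 0.688 and 0.723). For Ier2 the median r was -0.018 with 5 of 10 values above 0.

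Over 10 pairs, the 39 further primary response genes had r above 0 with an unadjusted p under 0.05 in 31 of 390 relations (7.95%), the late response genes in 2 of 130 (1.54%) and the upstream genes in 12 of 210 (5.71%), beside 3.62% of all. A list of 10 genes that respond to glucocorticoids stood higher, at 56 of 100 relations. Fkbp5, a chaperone of the glucocorticoid receptor, Sgk1, a kinase, and Tsc22d3, also called Gilz, had such relations in 10 of 10 pairs each. Their median r was 0.835, 0.826 and 0.737, and these 3 were named after their values were seen. Sgk1 in hypothalamus and cortex passed the adjusted threshold (r = 0.864, permutation p = 1e-05, adjusted p = 0.0434). In the parity comparison 1 of the 10 genes of this list was called, Errfi1, which fell by 0.24 on the log2 scale in the hypothalamus (11.8% of all genes were lower there), and the relation of the members with this list was not tested. The median parity difference over the list ran from -0.20 in the hippocampus to -0.10 in the hypothalamus.

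Within 1 region, the members moved together to different degrees. The median Pearson r over the 45 pairs of members was 0.676 in the cortex, 0.555 in the amygdala, 0.368 in the cerebellum, 0.342 in the hippocampus and 0.143 in the hypothalamus. An unadjusted permutation p under 0.05 with r above 0 was found for 29 of 45 pairs in the cortex, 27 in the amygdala, 17 in the cerebellum, 8 in the hippocampus and 4 in the hypothalamus. The share over all other genes tested against a member was 7.38%, 5.21%, 4.40%, 3.34% and 3.33%. The difference between regions was not tested, and pairs that share a member are not independent. Without the 2 farthest animals the counts with r above 0 were 25, 17, 12, 3 and 3, and 2 pairs had a p under 0.05 with r below 0, Arc with Ier2 in the hypothalamus (r = -0.615, permutation p = 0.0294) and Egr2 with Arc in the cerebellum (r = -0.514, permutation p = 0.0236).

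**Figure D5:**
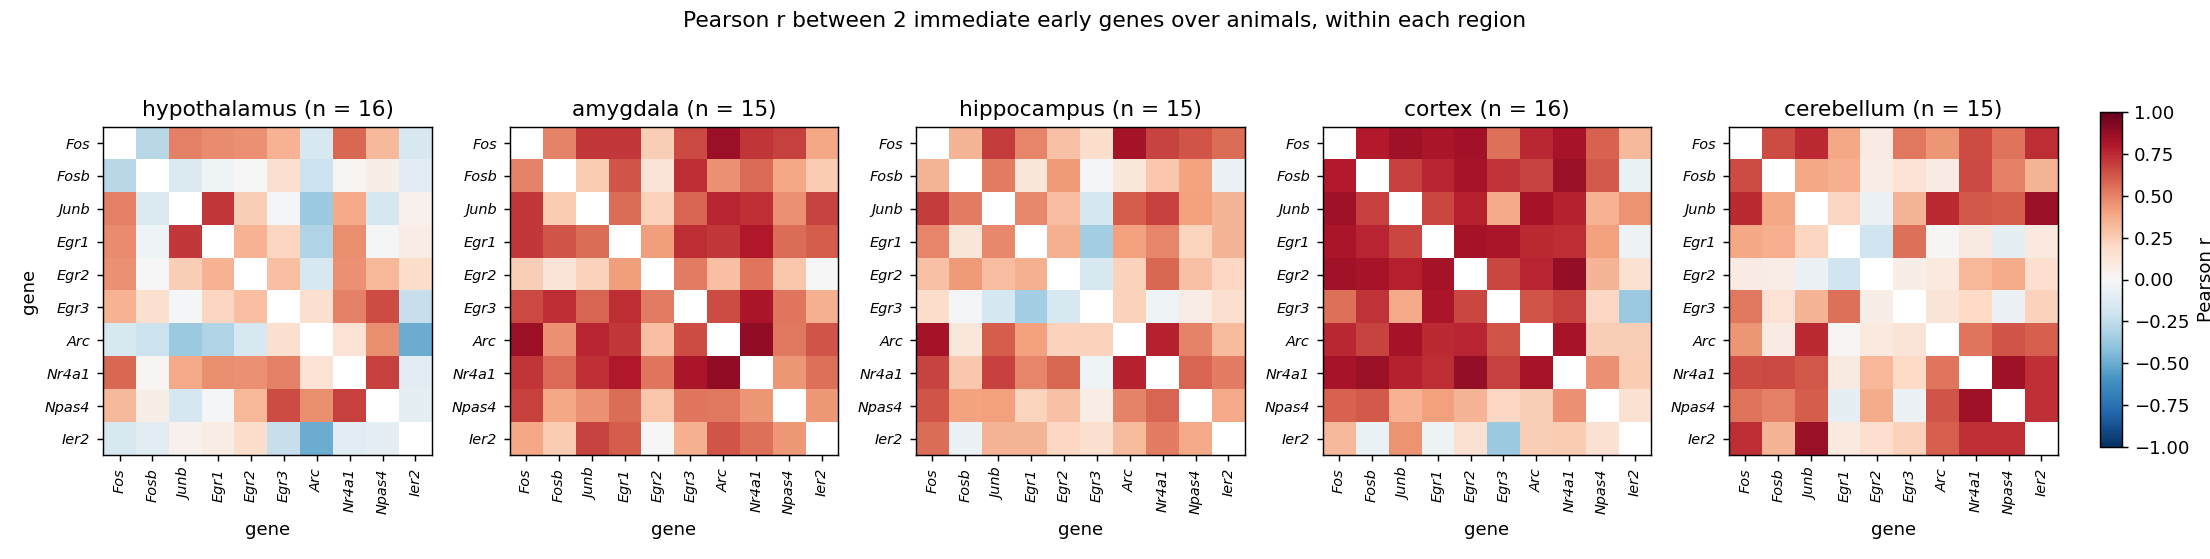
Pearson r between 2 members over animals (colour, scale from -1 to 1, rows and columns are members) in each of the 5 regions. The cortex panel is mostly red outside the row of Ier2, whose median r was 0.156, and the hypothalamus panel is pale, with a median of 0.143 over its pairs.

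The strongest pairs differed by region. In the amygdala Arc and Nr4a1 gave r = 0.887 (permutation p = 5e-05, rho = 0.829 with permutation p = 0.0002) and Fos and Arc 0.853 (permutation p = 0.00017, rho = 0.925 with permutation p = 2e-05). In the hippocampus Fos and Arc gave 0.834 (permutation p = 0.00029, rho = 0.857 with permutation p = 0.00023). The synaptic gene Arc was thus the closest partner of the AP-1 gene Fos in these regions. In the cortex Egr2 and Nr4a1 gave 0.880 (permutation p = 1e-05, the smallest possible, rho = 0.841 with permutation p = 9e-05), and Fosb and Nr4a1 0.865 (permutation p = 2e-05, rho = 0.779 with permutation p = 0.00117). The AP-1 partners Fos and Junb gave 0.851 (permutation p = 3e-05, rho = 0.891 with permutation p = 3e-05). In the cerebellum Junb and Ier2 gave 0.865 (permutation p = 0.0002, rho = 0.832 with permutation p = 0.00067), and in the hypothalamus Junb and Egr1 gave 0.705 (permutation p = 0.00348, rho = 0.712 with permutation p = 0.00385). Without the 2 farthest animals these 8 values ran from 0.680 to 0.876. Only Egr1 with Egr3 in the cortex (r = 0.817, permutation p = 2e-05, rho = 0.888 with permutation p = 2e-05) passed the adjusted threshold from the side of both genes, with adjusted p = 0.0306. At the smallest possible permutation p a lone gene has an adjusted p of 0.13. A pair could therefore pass only where a gene was related to many genes, and passing does not rank the pairs. Egr2 with Nr4a1 in the cortex, at that smallest permutation p, had an adjusted p of 0.17.

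Egr3 in the cortex was also related to many genes. It passed the adjusted threshold with 28.4% of all tested genes, and Fos with 0%. The summed level of 7 striatal markers ran from 202 to 331 CPM in virgin and from 220 to 284 in primiparous cortex, with all 7 above 1 CPM on average. Over the 16 cortical libraries its relation with Egr3 was r = 0.506 (permutation p = 0.0436, rho = 0.471 with permutation p = 0.0784). The sum of 5 olfactory bulb markers ran from 40.2 to 299 CPM in virgin and from 10.4 to 390 in primiparous cortex, and gave r = -0.456 with Egr1 (permutation p = 0.0684, rho = -0.565 with permutation p = 0.0299) and -0.063 with Fos. Of 40 relations of members with 4 marker lists in the cortex, 2 had an unadjusted p under 0.05. The part of tissue makeup in the relations between members was not tested.

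Over all 77 libraries, centred on region and state, the genes most like the mean of the members were Dusp1 (r = 0.689) and Dusp6 (0.645), phosphatases that act on MAP kinases, the immediate early factor Egr4 (0.680), Man1c1, a mannosidase of the Golgi (0.601), and Ina, a neurofilament protein (0.595). These are descriptions, since the libraries share animals. Dusp1 was close to the members in the cerebellum (r = 0.860), amygdala (0.832) and cortex (0.778) and not in the hypothalamus (-0.229).

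Members varied more between animals of a group than the median gene did, in every region except for Egr1 and Egr3 in the hippocampus. The genes were not matched for level. The largest coefficients of variation, 78.0% for Egr3 and 48.9% for Egr2 in the cerebellum, were at mean levels of 0.228 and 0.0895 CPM. The biological coefficient of variation of Npas4 lay at the 92.4th to 98.5th percentile of all tested genes in the 5 regions and that of Fos at the 86.2nd to 98.8th. Fos varied most in the cerebellum, at 47.6% beside a median of 10.5% over all genes. Egr1 in the hippocampus (9.42%, 49.8th percentile) and Egr3 in the hippocampus (9.08%, 46.2nd percentile) were near the median of 9.44%. Over animals, members were high in several regions together in animals 418 (above the group mean on average in 5 of 5 regions), 414, 425, 405 and 4489 (4 of 5 each), and low in 421, 4493 and 4486 (0 of 5 each).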

How the data were processed

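The authors isolated polyadenylated RNA, made unpaired-read libraries, aligned them with HISAT2 to mm10 and counted reads with featureCounts, per the labels and the methods. The strand setting is not given in the sources used here, so reads of overlapping genes cannot be told apart. The deposited counts are whole numbers without normalization for 27179 genes. The deposited log2 table, labelled as log2(CPM + 4), differed from log2(CPM + 4) of the counts by a median of 3.94 and matched log2(count / size factor + 4) within 5e-05; it served as an alternative only.

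Counts were fitted with edgeR 4.0.16 (TMM, robust quasi-likelihood, R 4.3.3), 1 fit per region for parity, 1 fit of 10 groups for regions and 4 groups for interactions, with Benjamini-Hochberg adjustment over 13016 genes. limma 3.58.1 (voom) and DESeq2 1.42.0 were alternatives, as were other scalings, filters, a length and GC offset and leaving out each library. Libraries of 1 animal number come from the same animal, as the labels and methods state, and so the numbers pair the regions. They do not pair virgin with primiparous animals. Correlations used 100000 permutations, and adjustment ran over all genes of a pair, not over the 100 relations that the plan had named. The members and lists were chosen with earlier results of these data known. Named genes were the members, list genes past the threshold (at most 5 per list and region) and the 5 genes most like the members. 1 list gene past the threshold is not reported here. The fits and correlations were tested on simulated data. Totals of 7959192 to 37871854 reads set the precision of low members.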

Additional observations from a re-analysis of the deposited data

Results flagged for a closer look

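Within each of the 100 combinations of member, region and state, Dixon's test on CPM marked 14 values, from 11 libraries, that stood apart from the rest of their group. Chance marks about 1 in 20 groups where values are normally distributed, which was not checked for these CPM, so the 2 rates cannot be compared directly. Of these, 4 were from primiparous animal 418 and 4 from virgin animal 4489. Animal 418 held 12.9 CPM of Npas4 in the hypothalamus (3.52 to 7.52 in the other 7), 36.2 in the cortex (at most 23.5 in the others) and 5.57 in the cerebellum (1.58 to 3.40), and 0.404 CPM of Egr2 in the cerebellum (0 to 0.127). Animal 4489 held 27.5 CPM of Fosb (11.5 to 16.9 in the others) and 378 of Egr1 (190 to 273) in the cortex, and 35.9 of Nr4a1 (16.5 to 23.0) and 8.49 of Npas4 (1.66 to 3.43) in the cerebellum.

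The other 6 were Junb in the hypothalamus of virgin animal 4488 (22.1 CPM), Egr2 in the hippocampus of primiparous animal 427 (2.67) and virgin animal 405 (1.80), Egr3 in the cerebellum of primiparous animal 414 (1.24), Ier2 in the amygdala of virgin animal 405 (10.8) and, on the low side, Nr4a1 in the hippocampus of virgin animal 4486 (46.6, others 52.3 to 55.7). The parity difference of Arc was 0.31 in the hypothalamus and -0.24 in the hippocampus on the log2 scale, and neither was called. By the interaction test these differed by 0.55, a call that was lost without the expression filter and under the length and GC correction.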

How the results depend on the processing

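In the hypothalamus the count of members called between states, 0 in the report, was 1 with DESeq2 and 1 with library sizes alone, and ran from 0 to 2 when each of the 16 libraries was left out in turn. In the other regions it was 0 under every alternative run. The count of members whose parity difference differed between hypothalamus and hippocampus, 1 in the report and 1 with the replicate block, was 1 without the hippocampal library of animal 413, an alternative chosen after seeing the data, 2 with RLE size factors, 0 without a filter, 0 with the length and GC offset and 0 with the replicate block and that offset together. The block changed no other count of members. Virgin and primiparous animals share no number, so no paired fit of the parity difference was possible. The 19 relations between regions numbered 12 without the 2 farthest animals (11 of the 19, and Arc in hypothalamus and hippocampus), beside 1 with r below 0 (Npas4 in the same pair), and 18 or 19 with other scalings, without centring, or without that library, also chosen after seeing the data. Pairs of members within a region moved to 7 (hypothalamus, not centred on state, from 4), 17 (amygdala, without the 2 farthest animals, from 27), and 3 and 14 (hippocampus, from 8, without the 2 farthest animals and not centred). The cause of these changes was not tested. Depth limits Egr2 and Egr3 in cerebellum and hypothalamus.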
